A study of Mus musculus with 2 samples.

Results

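Gata1 and 5 factors that work with it or beside it, Zfpm1, Gfi1b, Gfi1, Klf1 and Nfe2, were followed in mouse bone marrow progenitors after the oncogenic homeobox factor Hoxa9 was withdrawn from the nucleus. These 6 genes were chosen by symbol, and each had 1 row of its own among the 23235 rows of the deposited RNA sequencing table. The cells came from lineage-depleted marrow of C57B6 mice and carried 2 retroviruses, 1 with a fusion of Hoxa9 to an estrogen receptor part (MIGR1-HA-Hoxa9-ER) and 1 with its partner Meis1 (MIGR1-Flag-Meis1). In both conditions they grew with IL3 and had been transformed under 100 nM 4-hydroxytamoxifen (4OHT), the ligand that keeps the fusion protein nuclear. EtOH cells were then washed and kept for 72 h in ethanol, the vehicle, so that nuclear Hoxa9-ER was lost, and 4OHT cells were washed and kept for 72 h in 100 nM 4OHT. Meis1 and Hoxa9-ER were thus present as transgenes in both conditions, and the conditions differed in the ligand that holds the fusion in the nucleus. The labels give neither the number of animals behind the cultures nor whether the cells were clonal.

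Gata1 encodes a zinc finger protein that binds GATA sequences in DNA and is required in erythroid cells, megakaryocytes, eosinophils and mast cells. Zfpm1 encodes Fog1, which binds the Gata1 protein rather than DNA and is needed for its erythroid and megakaryocytic programmes. In mouse progenitors, forced expression of Fog1 has been found to oppose mast cell development. Gfi1b and Gfi1 encode closely related zinc finger repressors, used mainly in erythroid cells and megakaryocytes (Gfi1b) and in granulocytes and stem cells (Gfi1). Klf1 is the erythroid Kruppel-like factor that binds CACCC boxes, and Nfe2 encodes the large subunit of NF-E2, which binds DNA together with a small Maf protein.

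Upstream sequences of genes that moved together, and of the gene that moved against them, are shown to place the motifs of these factors. RefSeq start sites on build GRCm38.p6 were found for 5 of the 6 genes, and Nfe2 had none in the table. The 250 bases before the start are printed on the gene's own strand for Gata1 (chrX:7967911-7968160, minus strand), Gfi1b (chr2:28621983-28622232, minus strand), Klf1 (chr8:84901732-84901981, plus strand) and Zfpm1 (chr8:122281891-122282140, plus strand). Capitals mark AGATAA or TGATAA, the common Gata sequences, and CACCC, each searched on both strands, so that their reverse complements are in capitals as well. The Nfe2 sequence TGAGTCA was searched too and was not in these windows. No marked motif overlaps another.
Gata1: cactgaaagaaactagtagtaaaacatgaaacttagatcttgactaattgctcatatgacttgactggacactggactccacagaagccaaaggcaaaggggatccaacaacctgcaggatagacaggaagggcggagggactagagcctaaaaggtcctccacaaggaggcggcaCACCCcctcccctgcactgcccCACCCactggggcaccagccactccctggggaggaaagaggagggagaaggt
Gfi1b: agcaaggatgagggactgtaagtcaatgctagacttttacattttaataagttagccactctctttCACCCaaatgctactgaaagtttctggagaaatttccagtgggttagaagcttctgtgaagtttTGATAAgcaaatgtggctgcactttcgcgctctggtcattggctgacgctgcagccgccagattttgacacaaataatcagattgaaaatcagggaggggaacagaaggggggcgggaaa
Klf1: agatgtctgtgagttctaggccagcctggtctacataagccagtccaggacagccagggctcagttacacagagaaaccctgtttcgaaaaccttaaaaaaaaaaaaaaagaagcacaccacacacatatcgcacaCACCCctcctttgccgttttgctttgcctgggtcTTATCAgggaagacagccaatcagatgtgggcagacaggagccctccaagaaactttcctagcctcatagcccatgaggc
Zfpm1: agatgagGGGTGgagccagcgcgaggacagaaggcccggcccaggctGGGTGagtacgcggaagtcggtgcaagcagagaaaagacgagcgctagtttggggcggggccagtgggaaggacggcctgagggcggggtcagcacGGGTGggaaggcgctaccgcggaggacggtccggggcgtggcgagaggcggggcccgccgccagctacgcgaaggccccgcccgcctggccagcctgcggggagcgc

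Gfi1b held 1 TGATAA beginning at position -120 from its start, and Klf1 held 1 on the opposite strand beginning at position -80. Neither Gata sequence was in the Gata1 or Zfpm1 window, nor in the 2 windows of Gfi1, which are not shown. AGATAA or TGATAA occurred in 16.6% of 32817 windows of the same length, and TGAGTCA in 4.46%. CACCC occurred 2 times before Gata1, 3 times before Zfpm1, and 1 time each before Gfi1b and Klf1, and 52.0% of all windows held it. These matches describe letters and are not evidence of binding.

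The 2 conditions had 1 FPKM value per gene each (fragments scaled to transcript length and sequencing depth), and the labels say that each stands for replicates 1 and 2. No replicate error can therefore be given for any value here, and no test of this work was made. A gene is called where its row in the authors' deposited table has a q-value of 0.05 or less. "Rose" and "fell" are used of called genes and describe EtOH relative to 4OHT. Log2 changes are log2 of EtOH FPKM + 1 over 4OHT FPKM + 1, which understates the change of low genes. FPKM values gave no read totals, so depth is unknown, and the values summed to 591496 in EtOH and 544802 in 4OHT. Bringing both sums to that of 4OHT moved abundant genes by -0.12 on the log2 scale. Hoxa9 RNA, transgene included, was at 892 FPKM in EtOH and 476 FPKM in 4OHT, which does not report on the location of the protein. The progenitor genes Kit, at 10.1 FPKM in EtOH and 7.39 FPKM in 4OHT, and Cd34, at 45.8 FPKM in EtOH and 124 FPKM in 4OHT, were both detected, and Cd34 was called lower in EtOH. Since these are bulk samples, fewer cells of a type and less RNA per cell cannot be told apart.

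After loss of nuclear Hoxa9-ER, Gata1, Gfi1b, Gfi1, Klf1 and Nfe2 rose and Zfpm1 fell. All 6 genes were called in the authors' deposited table, 5 higher and 1 lower, where 22.5% of the 11865 tested rows were called, 12.0% higher and 10.5% lower. The median log2 change of the 6 genes was 0.72, beside -0.05 over all tested rows, whose quartiles were -0.25 and 0.18. From the highest level to the lowest, the order was Nfe2, Gfi1, Gata1, Gfi1b, Zfpm1 and Klf1 in EtOH, and Nfe2, Gfi1, Zfpm1, Gfi1b, Gata1 and Klf1 in 4OHT. Gata1 stood above Gfi1b and Zfpm1 in EtOH and below both in 4OHT. With no spread between replicates, it cannot be said which neighbours in these orders differ.

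**Figure D1:**
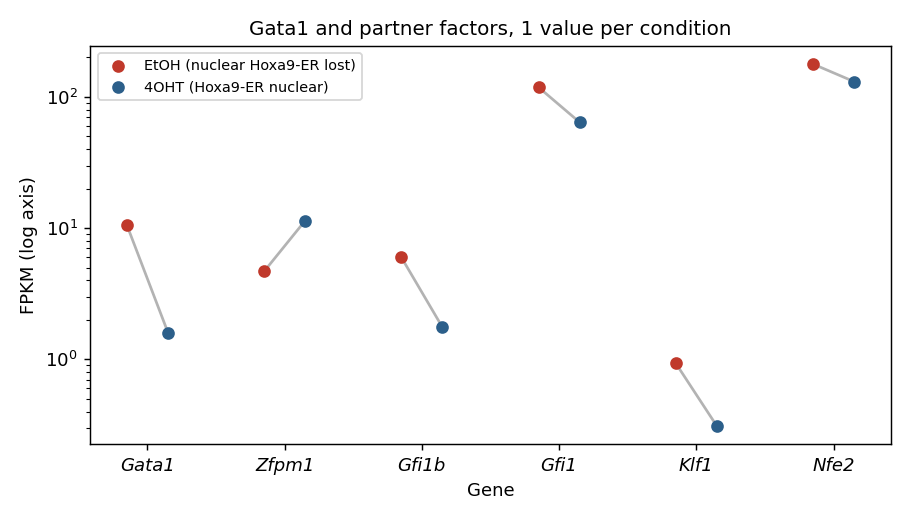
FPKM (log axis) of the 6 genes, with the EtOH value left and the 4OHT value right for each gene, 1 value per condition and hence no error bars. Zfpm1 is the gene whose EtOH point, at 4.68 FPKM, lies under its 4OHT point, at 11.4 FPKM.

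Gata1 (chromosome X, 7536386 to 7544941, mm9) had 10.6 FPKM in EtOH and 1.60 FPKM in 4OHT. That is a 6.61-fold higher level in EtOH and a log2 change of 2.15, the largest among the 6 genes. The p-value and q-value are both listed as 0 in the authors' deposited table. Only 1.32% of tested rows had a larger log2 change. In level, 50.8% of tested rows lay above Gata1 in EtOH and 84.8% did in 4OHT, so the gene was near the middle of the tested rows in EtOH and low among them in 4OHT.

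Zfpm1, the gene of the Gata1 cofactor Fog1 (chromosome 8, 124806041 to 124861147), had 4.68 FPKM in EtOH and 11.4 FPKM in 4OHT. Its level in EtOH was 0.409 times that in 4OHT, a log2 change of -1.13, and the authors' deposited table gives it a q-value of 1.7e-09. Only 1.71% of tested rows had a lower log2 change. Gata1 and its cofactor therefore moved in opposite directions. Within a condition, the ratio of Gata1 FPKM to Zfpm1 FPKM was 2.26 in EtOH and 0.140 in 4OHT, so that Gata1 was the more abundant RNA of the pair in EtOH and Zfpm1 was in 4OHT. The ratio of Gata1 to Gfi1b was 1.76 in EtOH and 0.911 in 4OHT. In 4OHT these 2 genes lay close together, at 1.60 and 1.76 FPKM. Without replicate values it cannot be said whether their order changed. A ratio of this kind does not depend on how the libraries were scaled.

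Gfi1b (chromosome 2, 28464970 to 28477502) had 6.004 FPKM in EtOH and 1.76 FPKM in 4OHT. The level was 3.42-fold higher in EtOH, a log2 change of 1.35, and its q-value is 1.68e-07 by the authors' deposited table. Its relative Gfi1 (chromosome 5, 108145674 to 108153363) was far more abundant, with 118 FPKM in EtOH and 64.0 FPKM in 4OHT. Gfi1 was 1.85-fold higher in EtOH, a log2 change of 0.88, and the q-value of the authors' deposited table is 2.81e-08. The ratio of Gfi1 to Gfi1b was 19.7 in EtOH and 36.5 in 4OHT, so Gfi1 was the main RNA of the pair in both conditions. No 50-base word of either gene's annotated transcripts occurred in another gene's transcripts, and the same held for the other 4 genes.

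Klf1 (chromosome 8, 87425827 to 87429194) lay under 1 FPKM in both conditions, with 0.935 FPKM in EtOH and 0.310 FPKM in 4OHT. It was 3.02-fold higher in EtOH, but its log2 change with the pseudocount was 0.56, and the q-value in the authors' deposited table was 0.0202. In level, 90.7% of tested rows lay above it in EtOH and 97.4% did in 4OHT. The rise of this erythroid factor thus took place near the bottom of the measured range.

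Nfe2 (chromosome 15, 103078649 to 103085847) had 178 FPKM in EtOH and 131 FPKM in 4OHT, a level that only 3.69% of tested rows exceeded in EtOH and 5.07% in 4OHT. It was 1.36-fold higher in EtOH, a log2 change of 0.44, and the authors' deposited table lists its q-value as 0.0115. Relative to its level this was the smallest of the 6 changes and the only one short of the 1.5-fold difference that the authors set for their second, stricter call. Nfe2 RNA was 16.8 times as abundant as Gata1 RNA in EtOH and 81.8 times in 4OHT.

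**Figure D2:**
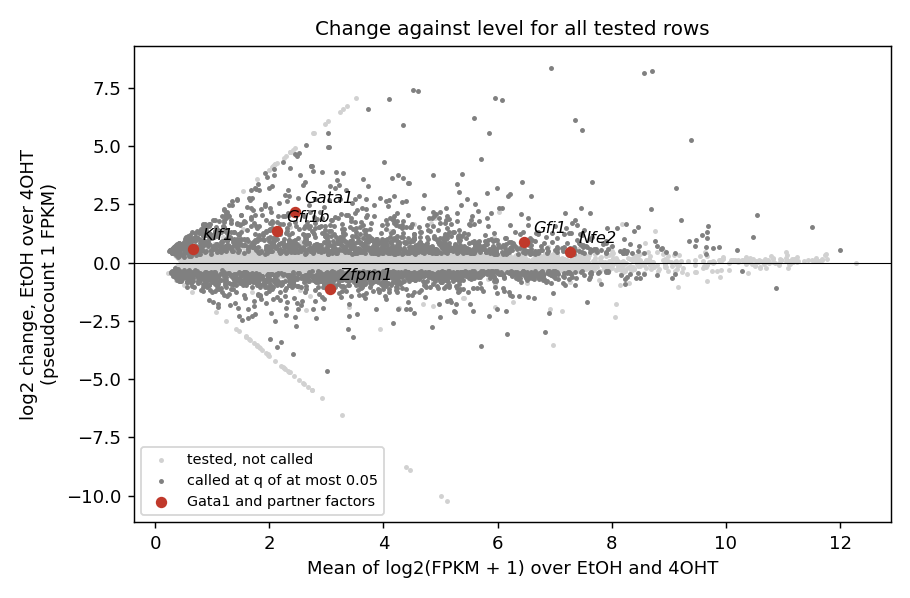
Log2 change of EtOH over 4OHT (pseudocount 1 FPKM) against the mean of log2(FPKM + 1) over both conditions for all tested rows, grey for rows not called, dark for called rows and red for the 6 genes. Gata1 (2.15) and Gfi1b (1.35) are the highest of the 6 on the vertical axis, at low to middle levels, while Gfi1 (0.88) and Nfe2 (0.44) lie among abundant RNAs.

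Gata2, the paralogue that precedes Gata1 in development of these lineages, rose as well. It had 122 FPKM in EtOH and 71.1 FPKM in 4OHT (log2 change 0.77, q-value 2.32e-06 in the authors' deposited table). Gata2 stayed the more abundant Gata RNA: it was 11.6 times as abundant as Gata1 in EtOH and 44.5 times in 4OHT. Gata3, which acts mainly in T cells and related lymphocytes, was at 0.360 FPKM in EtOH and 0.546 FPKM in 4OHT and did not pass. Gata4, Gata5, Gata6 and Zfpm2, the second Fog gene, were listed at 0 in both conditions, so no other Fog RNA was measured beside Zfpm1.

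**Figure D3:**
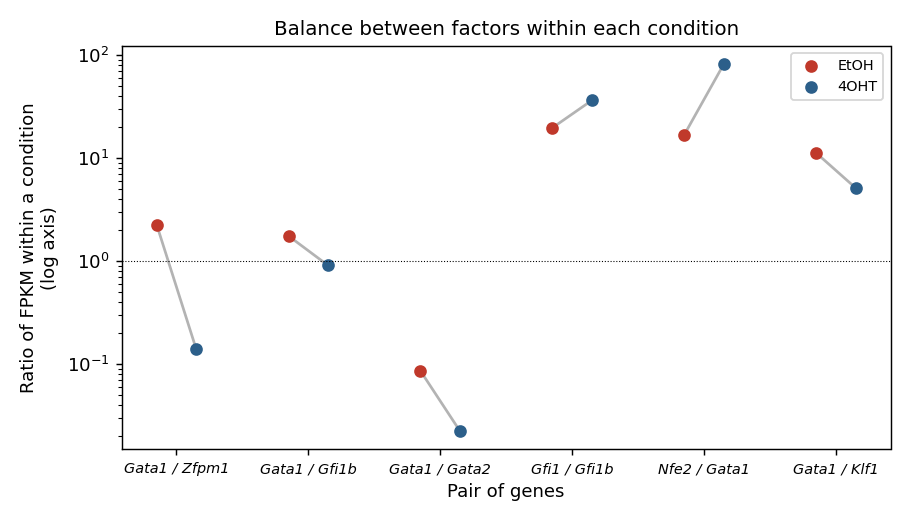
Ratio of the FPKM values of 2 genes within a condition (log axis), EtOH left and 4OHT right for each pair, with a dotted line where both RNAs are equally abundant. The ratio of Gata1 to Zfpm1 is 2.26 in EtOH and 0.140 in 4OHT, and that of Gata1 to Gfi1b is 1.76 in EtOH and 0.911 in 4OHT. These pairs cross the line, and the other 4 pairs drawn do not. The 4OHT point of Gata1 to Gfi1b lies close to the line, with no replicate spread to judge it by.

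Most genes of proteins that sit with Gata1 on DNA did not pass. Of 18 genes of complex partners, all of them tested, 1 rose, 3 fell and 14 did not pass, which is 22.2% called beside 22.5% of all tested rows. The list median was -0.11, beside -0.06 over tested rows that reached 1 FPKM in EtOH or 4OHT. Lmo2, the bridging protein of the Gata1 and Tal1 complex, fell most, to 49.9 FPKM in EtOH, against 136 FPKM in 4OHT (log2 change -1.43, q-value 9.06e-13 in the authors' deposited table). Tcf12 (-0.60), a helix-loop-helix partner of Tal1, and Ssbp2 (-0.57), which stabilises the Ldb1 protein, also fell. The gene that rose was Gata2, which the list holds although it is a paralogue of Gata1. Tal1 was at 15.9 FPKM in EtOH and 19.6 FPKM in 4OHT, and Ldb1 at 47.6 FPKM in EtOH and 57.5 FPKM in 4OHT. Neither passed.

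The corepressors through which Fog1, Gfi1 and Gfi1b act showed mostly small differences. Of 22 tested genes 1 rose, 3 fell and 18 did not pass, or 18.2% called, near the share of all tested rows, and the list median was -0.16. The CoREST gene Rcor1, whose product joins Gfi1 and Gfi1b to the demethylase Kdm1a, rose with a log2 change of 0.42. Mbd2 (-0.69), Rbbp7 (-0.41) and Chd3 (-0.40), genes of the NuRD complex that Fog1 recruits, fell. Kdm1a itself was at 22.2 FPKM in EtOH and 28.7 FPKM in 4OHT and did not pass.

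The small Maf partners of Nfe2 did not pass. Mafg was at 44.4 FPKM in EtOH and 37.5 FPKM in 4OHT, Mafk at 14.8 FPKM in EtOH and 14.2 FPKM in 4OHT, and Maff at 7.80 FPKM in EtOH and 7.08 FPKM in 4OHT. Of the 9 genes of partners and relatives, 6 were tested, and 2 of these rose, or 33.3% beside 12.0% of all tested rows called higher, a count too small to set the list apart. They were Nfe2l2, the stress-response factor Nrf2, with a log2 change of 0.59, and Bach1, a repressor that competes for the same DNA sequences, with 0.41. Nfe2 was 12.1 times as abundant as Mafk in EtOH and 9.24 times in 4OHT.

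Antagonists of these factors and factors of other lineages were taken as 1 list, which also holds Rb1, a pocket protein, Fli1, a megakaryocyte factor that works with Gata1, and Ets1. Of 10 tested genes 7 rose, 1 fell and 2 did not pass, a share of 80% called beside 22.5% of all tested rows, with a list median of 0.68. Rb1 (0.63) and Fli1 (0.39), named after their values were seen, were among those that rose. Sfpi1, the gene of PU.1, whose protein and Gata1 inhibit each other, rose to 167 FPKM in EtOH, against 77.5 FPKM in 4OHT (log2 change 1.10). PU.1 RNA was 15.8 times as abundant as Gata1 RNA in EtOH and 48.5 times in 4OHT. Cebpe (1.21), a factor of late granulocytes, Egr1 (1.32), a monocytic early response factor, and its corepressor gene Nab2 (1.14) rose too. Irf8, a monocyte and dendritic cell factor, fell (-1.54).

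Genes that have been described as repressed by Gfi1 or Gfi1b were higher for the most part, in the same direction as both repressors. Of 14 genes 13 were tested, and 11 of these rose, none fell and 2 did not pass. That is 84.6% called beside 22.5% of all tested rows. The list median was 0.79 over the 13 genes that reached 1 FPKM in EtOH or 4OHT. Id2, whose product blocks DNA binding of helix-loop-helix proteins, rose to 69.3 FPKM in EtOH, against 4.25 FPKM in 4OHT (3.74). Socs3 (1.88) and Socs1 (1.11), inhibitors of cytokine signalling, and the growth factor gene Csf1 (1.41) rose. The list also holds Hoxa9 and Meis1, both among the 11 that rose. They were carried by the retroviruses, so their RNA need not come from the cells' own genes. Sfpi1, Egr2 and Gata2 are counted in other lists as well.

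**Figure D4:**
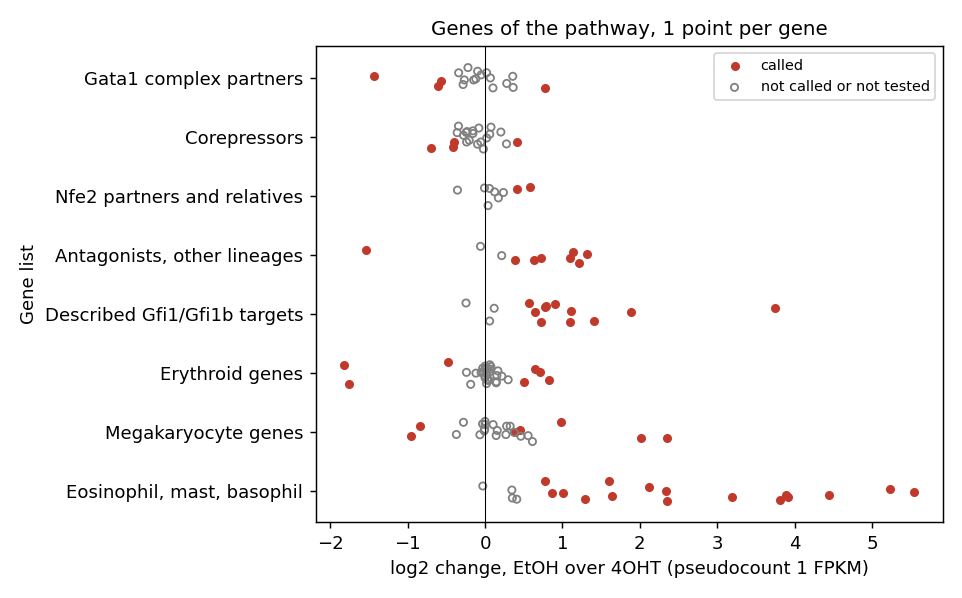
Log2 change of EtOH over 4OHT (pseudocount 1 FPKM) for the genes of 8 lists, 1 point per gene, filled red for called genes and open grey for genes not called or not tested, with random vertical spread. Eosinophil, mast cell and basophil genes reach 5.54 on the right, whereas the erythroid genes lie mostly near 0, with the beta globin gene Hbb-b2 at -1.76.

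Genes of the lineages that depend on Gata1 went different ways. Of 20 eosinophil, mast cell and basophil genes, all listed as having described Gata sites, 19 were tested. Of these 16 rose, none fell and 3 did not pass, or 84.2% called beside 22.5% of all tested rows. The list median was 2.23 over the 18 that reached 1 FPKM in EtOH or 4OHT and 1.88 over all 20. Epx, eosinophil peroxidase, had a log2 change of 5.54 and Prg2, the eosinophil major basic protein, of 5.24. The mast cell tryptase gene Tpsb2 (4.44) and the cytokine genes Il13 (3.91) and Il4 (3.88) followed. Il5ra, the eosinophil receptor of interleukin 5, was at 0.448 FPKM in EtOH and 0.478 FPKM in 4OHT and did not pass, and Kit and the granule proteoglycan gene Srgn did not pass either.

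Of 37 erythroid entries 34 had a row of their own and 15 were tested; 4 rose, 3 fell and 8 did not pass, or 46.7% called beside 22.5% of all tested rows. The list median was 0.05 over the 14 that reached 1 FPKM in EtOH or 4OHT. When both FPKM sums were made equal that median became -0.05. Beta globin was lower, with 24.0 FPKM in EtOH and 83.8 FPKM in 4OHT for Hbb-b2 (-1.76, q-value 4.32e-06 in the authors' deposited table). A joint row of Hbb-b1 and Hbb-b2 at the same locus, named after its values were seen, had 78.7 FPKM in EtOH and 197 FPKM in 4OHT. These globin genes are near-identical copies, which leaves the level of each uncertain. The joint row of the alpha globin genes Hba-a1 and Hba-a2, named likewise, was not tested and was at 0.406 FPKM in EtOH and 0.0529 FPKM in 4OHT. The genes that rose were the membrane genes Add2 (0.83) and Xk (0.71), Hemgn (0.65), which encodes a nuclear protein of blood cells, and the mitochondrial iron importer Slc25a37 (0.51), which is used outside erythroid cells as well. Low levels lay behind the rises of Add2 and Hemgn. Add2 was at 1.03 FPKM in EtOH and 0.140 FPKM in 4OHT, and Hemgn at 0.907 FPKM in EtOH and 0.219 FPKM in 4OHT. Alas2, the erythroid enzyme of haem synthesis, was not tested, at 0.0915 FPKM in EtOH and 0.0657 FPKM in 4OHT, and Slc4a1, the band 3 gene, was listed at 0 in both conditions.

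Among 25 megakaryocyte and platelet genes 17 were tested, with 5 risen, 2 fallen and 10 that did not pass, or 41.2% called beside 22.5% of all tested rows. The list median was 0.36 over the 16 that reached 1 FPKM in EtOH or 4OHT and 0.16 over all 25. Platelet factor 4, Pf4, fell to 10.2 FPKM in EtOH, against 19.1 FPKM in 4OHT (-0.84, q-value 0.0126 in the authors' deposited table), and the platelet glycoprotein gene Gp5 fell (-0.96). Itga2b, the platelet integrin gene that is also on in early progenitors, was at 76.0 FPKM in EtOH and 79.7 FPKM in 4OHT and did not pass. The genes that rose most, Cd9 (2.35) and the nucleotide receptor gene P2ry1 (2.01), are also used outside platelets, and Vwf, at 1.43 FPKM in EtOH and 0.229 FPKM in 4OHT, rose too (0.98). Tubb1, the platelet tubulin described as a target of Nfe2, was not tested, at 0.116 FPKM in EtOH and listed at 0 in 4OHT.

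Upstream of the 6 factors, the erythropoietin receptor gene Epor was at 1.08 FPKM in EtOH and 0.690 FPKM in 4OHT and did not pass. Csf2rb, the shared receptor subunit for IL3, rose (0.45), and it was the only gene of the 6 tested in that list of 10 to pass. That is 16.7% called, no more than the 22.5% of all tested rows.

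Markers of mature granulocytes and mast cells were higher for the most part. The eosinophil, basophil, mast cell, erythroid and megakaryocyte markers are all members of the lists above. Their counts therefore repeat those genes and are not a further observation. The summed level of 5 eosinophil markers was 4520 FPKM in EtOH and 117 FPKM in 4OHT, that of 6 basophil and mast cell markers 3275.5 FPKM in EtOH and 731 FPKM in 4OHT, and that of 6 neutrophil markers 16013 FPKM in EtOH and 53.2 FPKM in 4OHT. Of these markers 4 of 5 eosinophil genes, 6 of 6 basophil and mast cell genes and 6 of 6 neutrophil genes rose. Among all tested rows 12.0% were called higher. Among erythroid markers none rose, Alas2 lay under 0.1 FPKM in both conditions and Slc4a1 was at 0, and 6 megakaryocyte markers summed to 92.2 FPKM in EtOH and 102 FPKM in 4OHT, most of it Itga2b, with Pf4 called lower. The 5 monocyte and macrophage markers went both ways: their sum was 137 FPKM in EtOH and 244 FPKM in 4OHT, Csf1r and Mrc1 rose, and Emr1 fell to 102 FPKM in EtOH, against 202 FPKM in 4OHT. The 5 B cell markers summed to 1.72 FPKM in EtOH and 1.13 FPKM in 4OHT with none called, and the 6 T cell markers to 1.60 FPKM in EtOH and 3.67 FPKM in 4OHT, nearly all of it Lck, which fell. The part of such cells in the levels of Gata1 and its partners was not tested.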

How the data were processed

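RNA sequencing of EtOH and 4OHT cells was compared, 1 sample per condition. Per the submitters' processing notes the tools were CASAVA 1.8.2, Bowtie2 2.0.0.7 and Cuffdiff 2.0.2, with the mm9 build; the sources used here do not give annotation, strand setting or library scaling. Per the file headers, the authors deposited 1 FPKM value per condition, a p-value and a q-value for each row, the ratio of EtOH to 4OHT and whether a test was made. Tests were made in 11865 rows, and a further 11197 were untested, 152 had too little data and 21 failed. FPKM is relative to the whole library, so abundant RNAs that rise lower the others.

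From these values log2 changes with a pseudocount of 1 FPKM, ratios within a condition, medians and counts were computed (Python 3.11.15, pandas 2.3.3). List medians used genes that reached 1 FPKM in EtOH or 4OHT. The members and 10 gene lists (172 entries) were chosen with earlier results of these data known, and so were the markers. Named were the 6 members, up to 5 called genes per list with the largest change, the paralogues Gata2, Gata3 and Zfpm2, the small Maf genes, the nearest genes in level, genes overlapping a member's locus and the markers; any other gene was named after its values were seen. Some list genes are not reported here. Locus starts, counted from 0 in the table, were raised by 1: lengths then equalled RefSeq gene lengths in 7152 of 20601 genes, against 451 otherwise. Words of 50 bases were compared in GENCODE M21 transcripts. Computations were tested on simulated data. Alternatives were other pseudocounts, scalings, filters and call rules.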

Additional observations from a re-analysis of the deposited data

How the results depend on the processing

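No paired analysis was possible because each condition has 1 value per gene, and for the same reason no replicate could be left out. Each of the 6 genes kept its direction under all 4 alternatives tried. Between pseudocounts of 5 and 0.1 FPKM, the log2 change ran from 1.24 to 2.65 for Gata1, from 0.70 to 1.72 for Gfi1b and from 0.16 to 1.34 for Klf1, while that of Zfpm1 was -0.76 and -1.27. Gfi1 and Nfe2 moved least, and with both FPKM sums made equal they were at 0.76 and 0.32. All 6 were called at q of at most 0.05; 4 were at 0.01, where Klf1 and Nfe2 were lost, and 5 were with the ratio of 1.5, where Nfe2 was lost. Adjusted over the 10981 tested rows that reached 1 FPKM in EtOH or 4OHT, 5 were, since Klf1 was not among those rows. The erythroid list median turned to -0.046 under sum scaling, and that of the upstream receptors and kinases, 0.30, turned to -0.0053 without the filter on low values. Of the other values of list medians under an alternative, 21 lay within 0.1 of the reported median and 17 did not. Some counts of called genes differed by over 1.5 times, both at q of at most 0.01 and with the ratio of 1.5: corepressors had 0 risen and 1 fallen in place of 1 and 3, relatives of Nfe2 1 risen in place of 2, and the upstream receptors and kinases 0 in place of 1. Megakaryocyte genes had 3 risen with the ratio in place of 5, and 1 fallen at q of at most 0.01 in place of 2. The depth behind Klf1 and other genes under 1 FPKM is unknown.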

Other observations

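No other row of the table overlapped the locus of any of the 6 genes. The nearest single-gene row was Hdac6 for Gata1, at 3.22 FPKM in EtOH and 4.55 FPKM in 4OHT, and it was not called. Tsc1 beside Gfi1b, Dnase2a beside Klf1 and Hnrnpa1 beside Nfe2 were not called either, with log2 changes of -0.14, 0.02 and -0.37. Trhr2 beside Zfpm1 and 4930428O21Rik beside Gfi1 were not tested and lay under 1 FPKM.

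Over the 2 conditions, the genes nearest to Gata1 in log2(FPKM + 1) among 11854 tested rows that name 1 gene were C3ar1, a complement receptor gene, with 11.2 FPKM in EtOH and 1.62 FPKM in 4OHT, Nt5e, which encodes a nucleotidase of the cell surface, with 10.002 FPKM in EtOH and 1.65 FPKM in 4OHT, and G0s2, with 9.38 FPKM in EtOH and 1.51 FPKM in 4OHT. Their Euclidean distances were 0.077, 0.078 and 0.16. The nearest to Zfpm1 was Kremen1, a co-receptor gene of the Wnt pathway, with 4.65 FPKM in EtOH and 11.6 FPKM in 4OHT. The nearest were Ltb to Gfi1b, Prr13 to Gfi1, Saa3 to Klf1 and Cap1 to Nfe2. Of these 8 genes Saa3 was the only one not called. With 2 values per gene such likeness says nothing of shared control.

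Jak2, the kinase of the erythropoietin and IL3 receptors, was at 41.7 FPKM in EtOH and 11.01 FPKM in 4OHT, but the authors' test had failed in that row.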
